A study of Mus musculus with 6 samples.

Results

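Cholesterol and fatty acid synthesis genes, with the liver X receptor (LXR) genes and their targets, were examined in bone marrow derived macrophages (BMDMs) with and without PYK2. The 40 members were taken by gene symbol, as enzymes and regulators of sterol and lipid synthesis driven by sterol regulatory element binding proteins (SREBPs) and as LXR genes. All 40 were found among the 55291 genes of the count table, and 38 of them were among the 9815 genes with enough counts to be tested. BMDMs were grown for 7 days from bone marrow of 3 WT and 3 PYK2 KO mice, both on the C57BL/6 background, with L929-conditioned medium as the source of M-CSF, and received no polarizing cytokine. The knock-out is of the whole body and not of macrophages alone. Age was not given in the sources used here. RNA was sequenced from the 3′ end by a bulk form of MARS-seq, one library per mouse, and the libraries carry the numbers 1, 5 and 6 (WT) and 2, 3 and 4 (PYK2 KO).

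Cells make cholesterol from acetyl-CoA through mevalonate, farnesyl diphosphate, squalene and lanosterol. When sterols in the endoplasmic reticulum run low, SCAP carries the SREBP precursors to the Golgi, where they are cleaved into transcription factors that switch on the enzymes of this route and of fatty acid synthesis. INSIG proteins hold SCAP back when sterols are plentiful. The LXRs, nuclear receptors for oxidized sterols, act on the opposite side and switch on cholesterol export through ABCA1 and ABCG1, as well as SREBP-1c and desaturases. Macrophages are known for this pair of programs because they take up lipoproteins and dead cells and must store, esterify or export the cholesterol.

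The libraries held between 2857097 counts, in WT library 6, and 3917207 counts, in WT library 1. Ptk2b, which encodes PYK2, had 568 to 737 counts in the WT libraries and 64 to 71 in the PYK2 KO libraries. All 7 macrophage markers (Adgre1, Csf1r, Cd68, Itgam, Fcgr1, Mertk and Lyz2) were expressed, with 0 of 7 called different, and the summed markers made up 28734 to 29572 in counts-per-million (CPM) values in WT and 29925 to 30987 in PYK2 KO libraries. Lyz2 made up most of that sum, at 23536 to 24430 CPM in WT and 24815 to 25925 CPM in PYK2 KO libraries. Itgam and Lyz2 were higher in every PYK2 KO library than in any WT library, or 28.6% of the 7 against 10.2% of all genes. The 5 adipocyte and 6 erythroid markers had 0 counts in every library, and the T cell, dendritic cell, stromal and mast cell lists had at most 5 summed counts in a library. Of 4 B cell markers 3 were at 0 and Cd79b was expressed. The 6 tested of 7 neutrophil markers summed to 125 to 177 CPM in WT and 132 to 227 CPM in PYK2 KO libraries, with 0 of 6 called and 2 at an unadjusted p under 0.05, S100a9 and Mpo, both higher in PYK2 KO. Of the 6, 4 were above 0 and 2 below, Camp at a log2 fold change of -0.26 and Ltf at -0.09. Their part in the results below was not tested, and in bulk RNA fewer cells of a type cannot be told apart from less RNA per cell.

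Genotype difference was tested to ask whether macrophages without PYK2 differ in these lipid programs. None of the 38 members tested passed an adjusted p of 0.05, with 0 higher and 0 lower in PYK2 KO BMDMs. Levels are given in CPM after normalization, with the log2 fold change of PYK2 KO minus WT. Over all 9815 genes, 25 (0.255%) passed that threshold in edgeR's quasi-likelihood test, 11 higher (0.112%) and 14 lower (0.143%), with p-values adjusted by the Benjamini-Hochberg method. At an unadjusted p under 0.05 there were 2 of 38 members, Scd1 higher and Insig1 lower, or 5.26% against 6.03% of all genes (3.40% higher and 2.63% lower). DESeq2, which called 0.113% of the genes it tested, and limma-voom, which called 0.204%, also called 0 members, each with 2 at an unadjusted p under 0.05, against 1.51% and 6.00% of all genes. With one library left out, Insig1 and Scd1 stayed under that unadjusted p in each fit and other members joined them. Without PYK2 KO library 2 the count was 5 of 38 (13.2%, against 6.89% of all genes). It was 4 (10.5%) when WT library 1 was omitted (6.56% of all genes), and likewise for PYK2 KO library 3 (5.62%) and for PYK2 KO library 4 (4.44%). Omitting WT library 6 gave 3 (7.89%, against 6.95%) and omitting WT library 5 gave 2 (5.26%, against 4.71%). The members that joined were Mvk, Tm7sf2, Nr1h3, Cyp51, Soat1, Hsd17b7, Abca1 and Pmvk, and Mvk and Cyp51 did so in 2 fits each. The 3 PYK2 KO values lay wholly on one side of the 3 WT values in those same 2 members, again 5.26%, against 10.2% of all genes. The members' log2 fold changes ran from -0.37 to 0.37, with a median of 0.02 against 0.00 for all genes tested, and 22 were above 0 and 16 below. That median was -0.013 with WT library 1 omitted and 0.067 with WT library 6 omitted.

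A p-value past 0.05 does not show that a gene was the same in both genotypes, so the width of each interval was examined. The 95% interval of the log2 fold change stayed inside a 2-fold change either way in 38 of 38 members, as it did in 91.9% of all genes tested. It stayed inside a 1.5-fold change in 33 of 38 members (86.8%), against 68.8% of all genes. The 5 members with a wider interval were Cyp51, Hsd17b7, Nr1h3, Abca1 and Scd1. The median standard error was 0.11 for the members and 0.15 for all genes tested, and it depends on the number of counts a gene has.

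**Figure D1:**
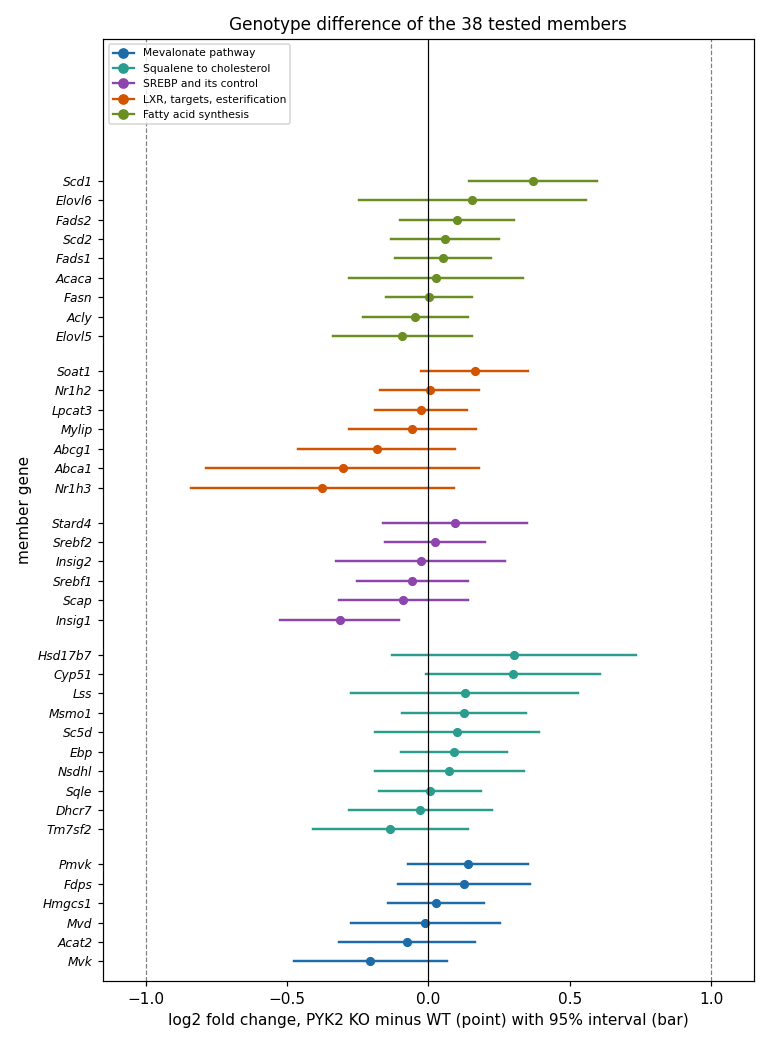
Log2 fold change of PYK2 KO minus WT for the 38 tested members, grouped by role, with the point at the estimate and the bar at the 95% interval. The solid line marks 0 and the dashed lines a 2-fold change, which no bar reaches, and the bars of Insig1 and Scd1 are those that leave out 0.

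The mevalonate pathway, which builds farnesyl diphosphate from acetyl-CoA, had 7 members, of which 6 were tested, with 0 called higher and 0 called lower and a median log2 fold change of 0.01, which was -0.051 with WT library 1 omitted and 0.075 with PYK2 KO library 4 omitted. Hmgcs1, which makes HMG-CoA at the entry of the pathway, varied little between libraries. Its levels were 286, 282 and 305 CPM in WT libraries 1, 5 and 6 and 301, 297 and 291 CPM in PYK2 KO libraries 2, 3 and 4. The 6 values overlapped between genotypes, with a log2 fold change of 0.03 (SE 0.08, 95% interval -0.14 to 0.20). The coefficient of variation over the 6 libraries was 3.01%, and 99.2% of all genes tested had a wider range of log2 CPM, a share that was not matched on counts (858 to 1119 per library for Hmgcs1), on which the range depends.

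The proximal promoter of Hmgcs1 is shown because it alone, among the 32 members with a matched promoter, held the core of the sterol regulatory element, the site bound by SREBPs. It lies at chr13:119690101-119690400 on the plus strand (RefSeq, GRCm38.p6), with the transcription start at position 251 of the 300 bases. Capitals mark the sterol regulatory element core TCACNCCAC at positions 114 to 122, the NF-Y box CCAAT (reading ATTGG on this strand) and the Sp1 box GGGCGG (or CCGCCC).
Hmgcs1 promoter: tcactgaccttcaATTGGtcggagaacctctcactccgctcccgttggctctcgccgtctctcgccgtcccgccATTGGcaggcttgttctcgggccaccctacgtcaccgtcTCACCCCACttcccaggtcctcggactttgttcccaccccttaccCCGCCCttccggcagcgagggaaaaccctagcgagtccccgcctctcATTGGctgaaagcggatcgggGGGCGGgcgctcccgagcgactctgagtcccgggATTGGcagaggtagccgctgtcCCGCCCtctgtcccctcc
The window held 4 NF-Y boxes and 3 Sp1 boxes besides the core, and none of the marked matches overlapped another. NF-Y and Sp1 are general factors known to act beside SREBPs. Promoters were matched for 32 of the 40 members, and both strands were searched. No promoter was at hand for Fdps, Fdft1, Sqle, Stard4, Abcg1, Scd1, Scd2 and Fads1, so the core was not sought in them. The core TCACNCCAC was found in 1 of these 32 (3.12%), against 1.44% of the 27025 genes with a promoter in the table. The NF-Y box was in 24 of 32 (75.0%) against 41.1% of all, and the Sp1 box in 25 of 32 (78.1%) against 38.2%. Both boxes together were in 20 of 32 (62.5%) against 14.5% of all. By role, both were in 9 of 9 promoters from squalene to cholesterol, 4 of 6 of the mevalonate pathway, 3 of 5 of SREBP control, 3 of 6 of the LXR group and 1 of 6 of fatty acid synthesis. The LXR direct repeat of AGGTCA with a spacer of 4 bases was in 0 of 32, and in 0.0148% of all genes. Such matches describe letters in a short window and say nothing of binding.

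Farther along the mevalonate pathway, Fdps makes farnesyl diphosphate, the precursor of squalene and of prenyl groups on proteins. It measured 282, 378 and 398 CPM in WT libraries 1, 5 and 6 and 406, 375 and 372 CPM in PYK2 KO libraries 2, 3 and 4. WT library 1 was the low one, and the other 5 libraries lay between 372 and 406 CPM. The log2 fold change was 0.13 (SE 0.11, 95% interval -0.11 to 0.36) and went to -0.013 without WT library 1. Mvk, which phosphorylates mevalonate, was at 59.2, 79.2 and 77.5 CPM in WT and 70.9, 60.3 and 55.4 CPM in PYK2 KO libraries, with a log2 fold change of -0.21 (SE 0.13, 95% interval -0.48 to 0.07). Here WT library 1 sat among the PYK2 KO values, so the genotypes overlapped, and the log2 fold change was -0.33 with that library omitted and -0.13 with PYK2 KO library 4 omitted. Pmvk, the next kinase, had 70.5, 74.2 and 75.4 CPM in WT and 81.8, 89.0 and 72.1 CPM in PYK2 KO libraries, a log2 fold change of 0.14 (SE 0.10, 95% interval -0.07 to 0.35). PYK2 KO library 4 lay within the WT range and the other two PYK2 KO libraries above it, and the log2 fold change was 0.22 with library 4 omitted and 0.069 with library 3 omitted. Acat2, which joins acetyl-CoA units in the cytosol, and Mvd, which makes isopentenyl diphosphate, had log2 fold changes of -0.07 and -0.01. Idi1, which isomerizes isopentenyl diphosphate, did not pass the low-count filter, with 2, 4 and 3 counts in WT and 3, 1 and 13 in PYK2 KO libraries.

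The route from squalene to cholesterol had 11 members and 10 tested, with 0 called higher and 0 called lower. Of the 10, 8 were above 0 and 2 below, with a median log2 fold change of 0.10, which went to 0.02 without WT library 1. Cyp51, the demethylase that removes the first methyl group from lanosterol, had the smallest p-value of this group. It stood at 27.3, 22.7 and 22.1 CPM in WT libraries 1, 5 and 6 and at 30.8, 26.7 and 31.6 CPM in PYK2 KO libraries 2, 3 and 4. The genotypes met at a single pair, WT library 1 being above PYK2 KO library 3. The log2 fold change was 0.30 (SE 0.15, 95% interval -0.01 to 0.61, adjusted p = 0.851 in edgeR).

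Hsd17b7, the ketoreductase of the demethylation complex, had 10.7, 11.8 and 16.8 CPM in WT and 17.3, 14.5 and 15.8 CPM in PYK2 KO libraries. WT library 6 lay among the PYK2 KO values and the other two WT libraries below them. Its log2 fold change was 0.30 (SE 0.20, 95% interval -0.13 to 0.74), and it was 0.50 with WT library 6 omitted and 0.17 with WT library 1 omitted. Msmo1, the methylsterol oxidase of the same complex, measured 82.7, 70.8 and 76.1 CPM in WT and 79.9, 77.2 and 93.3 CPM in PYK2 KO libraries, a log2 fold change of 0.13 (SE 0.10, 95% interval -0.09 to 0.34). The highest value was that of PYK2 KO library 4, without which the log2 fold change was 0.036, and WT library 1 came next, without which it was 0.19. Dhcr7, which catalyzes the last step of one branch to cholesterol, ranged from 70.0 CPM in PYK2 KO library 4 to 108 CPM in PYK2 KO library 2. Both extremes were thus of one genotype, the 3 WT libraries lay between them at 89.4, 96.3 and 85.9 CPM as did PYK2 KO library 3 at 89.4 CPM, and the log2 fold change was -0.03 (SE 0.12, 95% interval -0.28 to 0.23). It was -0.19 with PYK2 KO library 2 omitted, 0.12 with PYK2 KO library 4 omitted and 0.019 with WT library 5 omitted.

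The other tested genes of this route had log2 fold changes between -0.13 and 0.13. Sqle, the squalene epoxidase that commits squalene to sterols, had a mean of 92.3 ± 12.8 CPM for WT against 92.2 ± 11.6 CPM without PYK2 (SD, 3 mice each). Lss, which cyclizes squalene epoxide to lanosterol, Sc5d, which desaturates the sterol ring, Ebp, the sterol isomerase, and Nsdhl, a dehydrogenase of the demethylation complex, had log2 fold changes of 0.13, 0.10, 0.09 and 0.07, and Tm7sf2, a sterol reductase, of -0.13. Fdft1, the squalene synthase at the branch into sterols, had 7, 6 and 6 counts in WT and 2, 5 and 3 in PYK2 KO libraries and was not tested. Its final exon overlaps that of Ctsb, on the opposite strand, over 774 bases, and Ctsb had 1497 to 2573 counts per library, so the count of Fdft1 is uncertain.

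**Figure D2:**
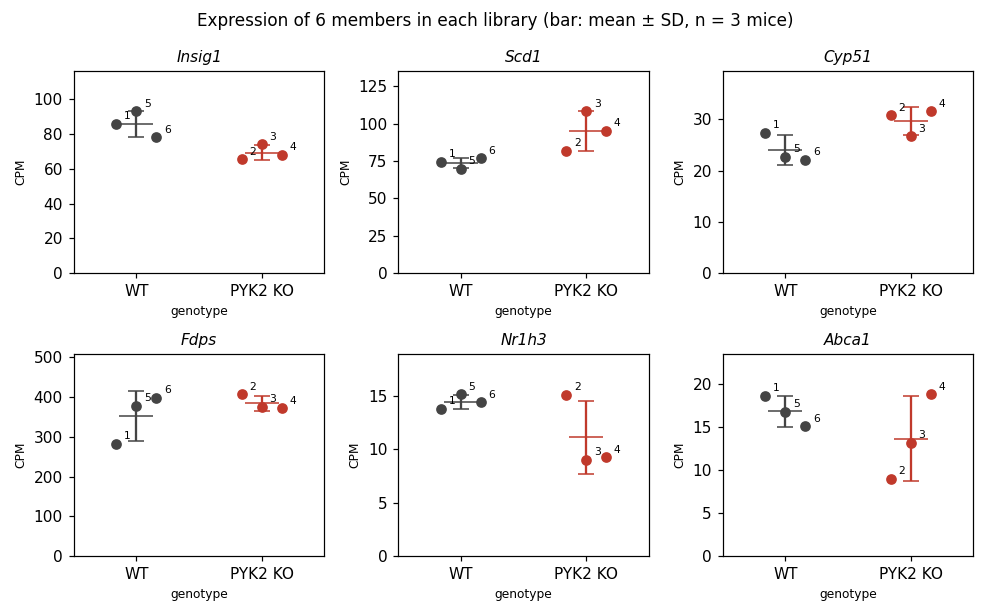
Expression in CPM of Insig1, Scd1, Cyp51, Fdps, Nr1h3 and Abca1 by genotype, with a point and its number for each library and the bar at the mean ± SD (n = 3 mice each). The genotypes separate for Insig1, at 78.2 CPM or more in WT and 74.1 or less in PYK2 KO, and for Scd1, at 76.8 or less in WT and 81.8 or more in PYK2 KO, and they overlap in the other panels.

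Among the 6 genes of SREBP control and sterol transport, all tested, 0 were called higher and 0 lower, with a median log2 fold change of -0.04, which was -0.00044 with PYK2 KO library 4 omitted. For both SREBP genes the means differed by less than the SD. Srebf2, which drives the cholesterol enzymes, had a mean of 285 ± 16.3 CPM for WT against 289.7 ± 12.3 CPM without PYK2, and Srebf1, which leans toward fatty acid synthesis, had 191 ± 10.7 against 184 ± 21.2 CPM (SD, 3 mice each). Their log2 fold changes were 0.02 (95% interval -0.15 to 0.20) and -0.06 (95% interval -0.25 to 0.14). The 3′ counts do not separate the transcripts for SREBP-1a and SREBP-1c.

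Insig1, an anchor of SCAP in the endoplasmic reticulum and itself a target of SREBPs, was the member with lower values in every PYK2 KO library. It had 86.1, 93.2 and 78.2 CPM in WT libraries 1, 5 and 6 and 65.4, 74.1 and 68.3 CPM in PYK2 KO libraries 2, 3 and 4. The highest PYK2 KO value, of library 3, was below the lowest WT value, of library 6. The means were 85.8 ± 7.53 CPM for WT and 69.3 ± 4.43 CPM without PYK2 (SD, 3 mice each), which is 80.7% of WT. That is a log2 fold change of -0.31 (SE 0.10, 95% interval -0.53 to -0.10), with an adjusted p of 0.539 in edgeR, which does not pass. Groups of 3 that do not overlap reach an exact permutation p of 0.1, the smallest that this design allows. With one library left out the log2 fold change stayed between -0.37 and -0.25.

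The Insig1 gene lies on chromosome 5 from 28071363 to 28078662 (GRCm38, plus strand). Its promoter is shown for comparison with that of Hmgcs1, and it was chosen after the values were seen. It spans chr5:28071162-28071461 on the plus strand (RefSeq, GRCm38.p6), with capitals for the same boxes.
Insig1 promoter: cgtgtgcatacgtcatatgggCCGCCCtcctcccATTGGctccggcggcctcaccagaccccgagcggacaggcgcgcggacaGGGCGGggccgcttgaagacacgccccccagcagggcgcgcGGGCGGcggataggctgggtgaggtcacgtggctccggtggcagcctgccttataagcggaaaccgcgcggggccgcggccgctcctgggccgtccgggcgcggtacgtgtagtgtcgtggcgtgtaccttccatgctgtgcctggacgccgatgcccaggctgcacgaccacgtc
This window held 1 NF-Y box and 3 Sp1 boxes but not the letters of the sterol regulatory element core. Insig2, the second anchor, which is not a classic SREBP target, had the narrowest range of log2 CPM among the tested members, from 23.7 to 25.3 CPM over the 6 libraries and with a coefficient of variation of 2.31%. Its log2 fold change was -0.03 (SE 0.14, 95% interval -0.33 to 0.27). Whether the difference in Insig1 exceeded that in Insig2 was not tested. Scap, the escort of SREBPs, measured 60.5, 56.5 and 54.0 CPM in WT and 50.05, 56.5 and 54.8 CPM in PYK2 KO libraries, a log2 fold change of -0.09 (SE 0.11, 95% interval -0.32 to 0.14). WT library 1 was highest and PYK2 KO library 2 lowest, with the other 4 within 54.0 and 56.5 CPM, and the log2 fold change was -0.040 with PYK2 KO library 2 omitted. Stard4, a carrier of cholesterol between membranes, had 40.9, 50.4 and 51.9 CPM in WT and 50.7, 53.0 and 48.6 CPM in PYK2 KO libraries. WT library 1 was again the low value, the other 5 lay within 48.6 and 53.0 CPM, and the log2 fold change of 0.09 (SE 0.12) went to -0.011 without that library.

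LXR genes, LXR targets and the esterifying enzyme made up 7 members, all tested, with 0 called higher and 0 called lower, and 2 were above 0 and 5 below. Their median log2 fold change was -0.06, and it went to -0.18 without PYK2 KO library 4. Nr1h2, which encodes LXRβ, had a mean of 168 ± 14.4 CPM for WT against 169 ± 9.85 CPM without PYK2 (SD, 3 mice each), with a log2 fold change of 0.01 (95% interval -0.17 to 0.18). Nr1h3, which encodes LXRα, was at 13.8, 15.1 and 14.4 CPM in WT libraries and at 15.1, 9.01 and 9.24 CPM in PYK2 KO libraries 2, 3 and 4. The low values were those of PYK2 KO libraries 3 and 4, from 26 and 31 counts, while library 2 matched the WT libraries. The log2 fold change of -0.37 (SE 0.22, 95% interval -0.84 to 0.09, adjusted p = 0.896 in edgeR) went from -0.66 to -0.25 with one library left out.

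Abca1, the pump that loads cholesterol onto apolipoprotein A-I, had the widest range of log2 CPM among the tested members, and 9.37% of all genes tested had a wider range. It measured 18.6, 16.8 and 15.1 CPM in WT libraries 1, 5 and 6 and 8.98, 13.2 and 18.8 CPM in PYK2 KO libraries 2, 3 and 4. The lowest and the highest value were both from PYK2 KO mice. The log2 fold change of -0.30 (SE 0.23, 95% interval -0.79 to 0.18) was -0.62 without PYK2 KO library 4 and -0.07 without PYK2 KO library 2. Abcg1, the pump toward mature high-density lipoprotein, had 59.5, 53.7 and 47.0 CPM in WT and 40.1, 54.7 and 47.4 CPM in PYK2 KO libraries, with PYK2 KO library 2 lowest as for Abca1. Its log2 fold change was -0.18 (SE 0.13, 95% interval -0.46 to 0.10), and it was -0.077 with PYK2 KO library 2 omitted and -0.29 with PYK2 KO library 3 omitted.

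Soat1, which esterifies cholesterol for storage in droplets, was at 173, 183 and 175 CPM in WT and at 195, 178 and 221 CPM in PYK2 KO libraries. PYK2 KO library 3 lay within the WT range and the other two above it. Its log2 fold change was 0.16 (SE 0.09, 95% interval -0.02 to 0.35, adjusted p = 0.892 in edgeR). Omitting PYK2 KO library 4 gave 0.076 and omitting PYK2 KO library 3 gave 0.23. Mylip, an LXR target that marks lipoprotein receptors for degradation, and Lpcat3, which remodels phospholipids with polyunsaturated chains, had log2 fold changes of -0.06 and -0.03, and Lpcat3 stayed between 160.0 and 172 CPM in all 6 libraries.

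Fatty acid synthesis, elongation and desaturation had 9 members, all tested, with 0 called higher and 0 called lower. Of them 7 were above 0 and 2 below, with a median log2 fold change of 0.05, which was -0.03 without WT library 1. Scd1, a delta-9 desaturase that makes oleate and palmitoleate and a target of both SREBP-1c and LXR, was the member with higher values in every PYK2 KO library. It had 74.6, 69.7 and 76.8 CPM in WT libraries 1, 5 and 6 and 81.8, 108 and 95.4 CPM in PYK2 KO libraries 2, 3 and 4. The gap between the genotypes was that between WT library 6 and PYK2 KO library 2, and PYK2 KO library 3 was highest. The means were 73.7 ± 3.62 CPM for WT and 95.2 ± 13.3 CPM without PYK2 (SD, 3 mice each), which is 129% of WT. A log2 fold change of 0.37 (SE 0.11, 95% interval 0.14 to 0.60) had an adjusted p of 0.424 in edgeR, which does not pass. It stayed between 0.27 and 0.47 with one library left out.

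Scd2, the paralog that lies beside Scd1 on chromosome 19, did not share this pattern of values. It was at 608, 699 and 769 CPM in WT and at 751, 714 and 697 CPM in PYK2 KO libraries, so WT libraries 1 and 6 bounded the range. Its log2 fold change was 0.06 (SE 0.09, 95% interval -0.13 to 0.25), and the difference between the paralogs was not tested. Scd1 spans positions 44394455 to 44407879 and Scd2 positions 44293674 to 44306864 (GRCm38).

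The enzymes on the way to palmitate had fold changes near 0. Fasn, the fatty acid synthase, had 183, 225 and 247 CPM in WT and 239, 221 and 194 CPM in PYK2 KO libraries, a log2 fold change of 0.00 (SE 0.07, 95% interval -0.15 to 0.15). Its coefficient of variation over the 6 libraries was 11.5%, and for a fold change so near 0 the SE and interval are less reliable. Each PYK2 KO value lay inside the span of the WT values. Acly, which makes cytosolic acetyl-CoA from citrate, and Acaca, which makes malonyl-CoA, had log2 fold changes of -0.05 (95% interval -0.23 to 0.14) and 0.03 (95% interval -0.28 to 0.34). Among the desaturases and elongases of longer chains, Fads2, the delta-6 desaturase, had 159, 184 and 189 CPM in WT and 212, 181 and 176 CPM in PYK2 KO libraries, with PYK2 KO library 2 highest and WT library 1 lowest. Its log2 fold change was 0.10 (SE 0.09, 95% interval -0.10 to 0.30), and it was 0.011 with PYK2 KO library 2 omitted and 0.15 with PYK2 KO library 4 omitted. Elovl6, which elongates palmitate to stearate, had 16.1, 12.6 and 17.2 CPM in WT and 18.9, 14.2 and 17.6 CPM in PYK2 KO libraries, a log2 fold change of 0.16 (SE 0.19, 95% interval -0.24 to 0.56) from 41 to 63 counts per library. It was 0.031 with WT library 5 omitted and 0.26 with PYK2 KO library 3 omitted. Fads1, the delta-5 desaturase, and Elovl5, which elongates polyunsaturated chains, had log2 fold changes of 0.05 and -0.09.

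**Figure D3:**
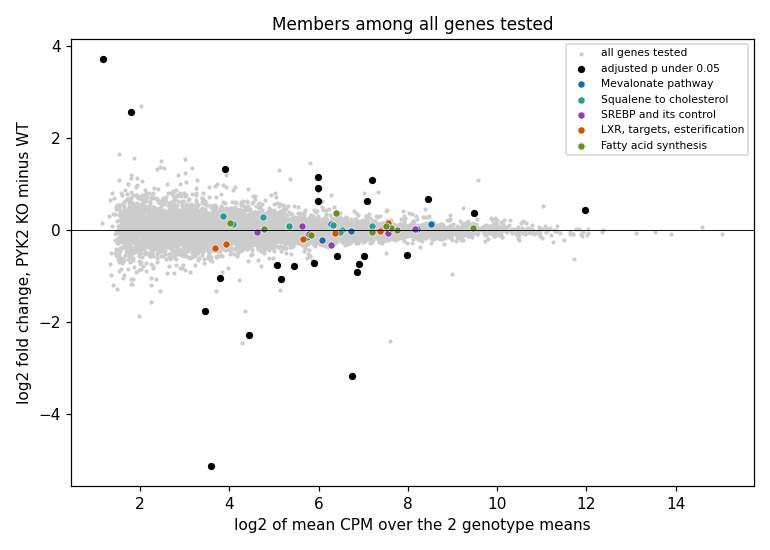
Log2 fold change of PYK2 KO minus WT against the log2 of the mean CPM for all 9815 genes tested (grey), the 25 genes past an adjusted p of 0.05 (black) and the 38 members (colours by role). The members lie within the grey band between -0.37 and 0.37, and none of them is black.

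For the synthesis genes as groups, the libraries of one genotype were spread more widely than the genotype means. The summed level of the 16 tested genes from mevalonate to cholesterol was 1431, 1545 and 1650 CPM in WT libraries 1, 5 and 6 and 1675, 1571 and 1545 CPM in PYK2 KO libraries 2, 3 and 4. The means of 1542 ± 109 and 1597 ± 68.6 CPM (SD, 3 mice each) differed by less than either SD. WT library 1 held the lowest value of 7 of these 16 genes (43.8%) and of 6 of the 9 fatty acid genes (66.7%), against 18.1% of all genes tested. It held the highest value of 1 and 0 of them, against 17.7% of all genes.

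LXR genes and targets ran the other way across some of these libraries. Relative to each gene's mean over the 6 libraries, WT library 1 was at -0.15 for the mevalonate genes, -0.09 for squalene to cholesterol and -0.12 for fatty acid synthesis on the log2 scale, and at 0.12 for the LXR group. PYK2 KO library 2 was at 0.07, 0.13 and 0.07 for the 3 synthesis groups and at -0.10 for the LXR group. PYK2 KO library 3 was at -0.10 for the LXR group as well but at 0.03, -0.02 and 0.05 for synthesis, so the pattern was not shared by every library. In the SREBP control group the libraries lay between -0.07 and 0.04. These values are averages over 6 to 10 genes measured in the same libraries, and no test was made of them. The labels give no batch. The paper gives a plating density and a change of medium for BMDMs in general, but not the density or handling of each library.

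**Figure D4:**
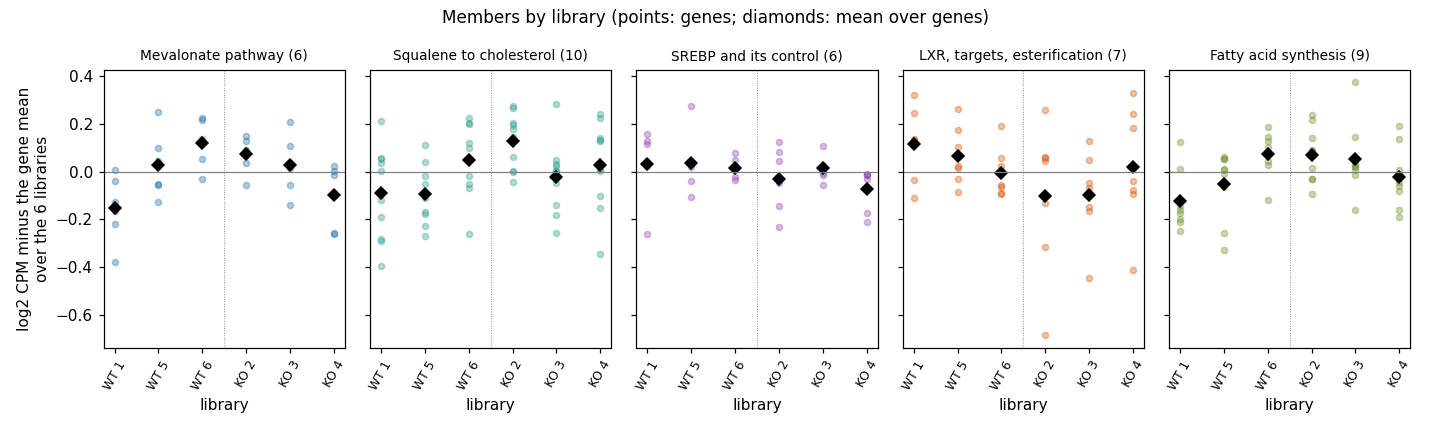
Log2 CPM of each member minus its mean over the 6 libraries, by library and role group, with points for genes and diamonds for the mean over the genes of the group (number in the panel title). WT library 1 is lowest for the mevalonate and fatty acid groups, at -0.15 and -0.12, and highest for the LXR group, at 0.12.

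Other genes of these pathways were read from the same fit. Of 14 further sterol and isoprenoid genes, 13 were tested, 0 were called and the median log2 fold change was 0.03. Of 18 further fatty acid and glycerolipid genes, 14 were tested, 0 were called and the median was 0.04. Of 17 genes of cholesterol handling, 15 were tested, 0 were called and the median was -0.06, with 13 of 15 below 0, against 49.5% of all genes. WT library 1 held the highest value of 8 of those 15 (53.3%, against 17.7% of all genes) and WT library 6 the lowest of 7 (46.7%, against 16.7%), with mean deviations of 0.15 and -0.16 on the log2 scale, and their part in that count was not tested. The sterol and isoprenoid median lay between 0.012 (PYK2 KO library 3 omitted) and 0.056 (PYK2 KO library 2 omitted). The fatty acid and glycerolipid median lay between -0.033 and 0.067 over the fits that omit a library, and that of cholesterol handling between -0.092 and -0.020, and omitting WT library 1 gave the -0.033 and the -0.020. Unadjusted p-values under 0.05 were found for 4 of these 42 genes in edgeR (9.52%, against 6.03% of all genes). Limma-voom gave 4 of 42 (9.52%, against 6.00%) and DESeq2 0 of 47 (against 1.51%). Omitting WT library 6 raised the edgeR count to 9 of 42 (21.4%, against 6.95% of all genes). With PYK2 KO library 4 omitted it was 2 of 43 (4.65%, against 4.44%).

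The 2 sterol genes among those 4 were the ERLIN pair, whose proteins form a complex in the endoplasmic reticulum that acts in the degradation of sterol-regulated proteins. Erlin1 was at 21.2, 21.6 and 21.0 CPM in WT and at 18.0, 13.5 and 14.3 CPM in PYK2 KO libraries, a log2 fold change of -0.48 (SE 0.17, adjusted p = 0.611 in edgeR). Erlin2 was at 19.15, 15.96 and 16.12 CPM in WT and at 25.3, 23.9 and 21.2 CPM in PYK2 KO libraries, a log2 fold change of 0.45 (SE 0.16, adjusted p = 0.617 in edgeR). For both genes the genotypes did not overlap, in opposite directions, as in 5.07% of all genes for lower and 5.17% for higher values. Acsl4, which activates arachidonate, had 25.3, 24.1 and 25.9 CPM in WT and 34.3, 28.1 and 34.9 CPM in PYK2 KO libraries, again without overlap (log2 fold change 0.37, SE 0.14, adjusted p = 0.661 in edgeR). Without overlap were 1 higher and 2 lower of the 13 tested sterol and isoprenoid genes (23.1%). So were 2 higher and 0 lower of the 14 tested fatty acid and glycerolipid genes (14.3%) and 0 of the 15 of cholesterol handling, against 10.2% of all genes.

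Cd36, a scavenger receptor for oxidized lipoproteins and fatty acids, was at 27.1, 15.4 and 10.5 CPM in WT libraries 1, 5 and 6 and at 18.3, 31.5 and 41.1 CPM in PYK2 KO libraries 2, 3 and 4, a log2 fold change of 0.74 (SE 0.30, adjusted p = 0.697 in edgeR). Omitting WT library 1 gave a log2 fold change of 1.21, and omitting PYK2 KO library 4 gave 0.45. WT library 1 lay above PYK2 KO library 2, so the genotypes overlapped. The 6 tested neutrophil markers summed to 177, 224 and 227 CPM in WT library 1 and PYK2 KO libraries 3 and 4 and to 125, 145 and 132 CPM in WT libraries 5 and 6 and PYK2 KO library 2. S100a9 had its highest values in those first 3 libraries, at 70.7, 93.2 and 103 CPM, but S100a8, Ngp, Camp, Ltf and Mpo did not share that order, with Camp at 6.64 CPM in WT library 1 against 10.1 and 8.76 CPM in WT libraries 5 and 6. The part of these transcripts in the Cd36 values was not tested. Cd36 passed the threshold in the fit without a filter on low counts (adjusted p = 0.00226 in edgeR) and in no other fit made here.

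Some of these genes share letters at the 3′ end, where these libraries were read, with other genes. In the last 500 bases of their protein-coding transcripts, 12 of the 40 members had a match of at least 95% identity over at least 100 bases to a transcript of another gene. For Fdps these were 5 processed pseudogenes, with at most 4 counts in a library, and Gm43738, a gene model that overlaps Fdps, with 0 counts. Idi1, which did not pass the filter, matched 2 processed pseudogenes with at most 1 count. Acat2 matched its paralog Acat3, which had at most 1 count, and on the opposite strand Tcp1, at 397 to 546 counts, each over 353 bases. Tm7sf2 shares 532 exon bases on the same strand with Vps51, which had 46 to 93 counts. On the opposite strand, Cyp51 shares 166 bases with Akap9, at 17 to 36 counts, Srebf1 shares 109 with Rai1, at 67 to 105, and Lpcat3 shares 334 with Emg1, at 201 to 266. How the counting treated such reads is not given in the sources used here, so the levels of these members are uncertain to that extent. Fdft1 lies 2.97 Mb from Ptk2b on chromosome 14 and was the only member on that chromosome.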

How the data were processed

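BMDMs of 6 mice, 3 per genotype, were sequenced after 7 days of culture. The authors ran 3′ MARS-seq reads through UTAP, and their deposited values are raw counts for each gene symbol, without normalization. The submitters' processing notes name cutadapt, STAR and mm10, and versions and the handling of molecular identifiers are not given in the sources used here, so intervals may not cover independent molecules. Each of the 6 columns was matched to a mouse by name.

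Genotypes were compared with edgeR 4.0.16 under R 4.3.3 (low counts removed by filterByExpr, TMM normalization, quasi-likelihood F test on genotype alone, Benjamini-Hochberg adjustment over 9815 genes, threshold 0.05). CPM were scaled to the filtered, TMM-adjusted library sizes. Standard errors are the absolute log2 fold change, fitted separately without a prior count, divided by the root of F. The 95% intervals use t quantiles around the reported log2 fold change. As the terms of the ratio come from separate fits, it is less reliable for fold changes near 0, as for Fasn. No pair of libraries of one genotype was a duplicate (chi-square per degree of freedom of at least 2.15). The code was tested on simulated data. Alternatives were DESeq2 1.42.0, limma-voom (limma 3.58.1), RLE size factors, library size alone, no filter, and each library left out in turn. Positions come from GENCODE M21 (GRCm38) and promoters from RefSeq (GRCm38.p6). The members, role groups, pathway lists and marker lists were chosen with earlier results of these data known. Values in every library are given for the 3 members of each of the 5 role groups with the smallest p and the 2 with the widest range. Hmgcs1, Fasn, Scd2 and Insig2 were added after their values were seen, and other pathway genes are named at an unadjusted p under 0.05.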

Additional observations from a re-analysis of the deposited data

How the results depend on the processing

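No member passed the threshold under RLE size factors, library size alone, no filter on low counts, DESeq2 or limma-voom, or with any one library left out. Direction and call of the named members stayed as reported in 85 of 85 values under those 5 settings and in 98 of 102 values with one library left out. The other 4 were Fdps (-0.013) and Stard4 (-0.011) without WT library 1, and Dhcr7 without WT library 5 (0.019) or PYK2 KO library 4 (0.12). Their ranges were -0.013 to 0.22, -0.011 to 0.16 and -0.19 to 0.12. Without a filter 159 genes of the whole table passed, against 25, and 1 other pathway gene, Cd36. With one library left out, 14 (without PYK2 KO library 4) to 34 genes (without WT library 1) passed, and 15 passed without either PYK2 KO library 2 or WT library 5. The causes were not tested. Role group medians with one library left out ran from -0.013 to 0.067 for all members, -0.05 to 0.07 for mevalonate, 0.02 to 0.14 for squalene to cholesterol, -0.058 to -0.00044 for SREBP control, -0.18 to -0.018 for LXR (the lowest without PYK2 KO library 4) and -0.03 to 0.10 for fatty acid synthesis. The largest shift of the median over all genes under another scaling was 0.008 on the log2 scale. No paired analysis was possible because no replicate number occurs in both genotypes. Among the tested members, depth limits Nr1h3, Abca1, Lss, Hsd17b7 and Elovl6 most, at 26 to 73 counts per library and standard errors of 0.19 to 0.23.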
